A study of Mus musculus with 9 samples.

Results

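The comparison of day 4 after irradiation with untreated thymus used 6 of the 9 arrays of the series: the 3 arrays labelled untreated and the 3 labelled day 4. The other 3 arrays, from day 7, are given here only as levels beside them and to share the estimate of the spread. All mice were female C57BL/6J of 6 to 8 weeks. The untreated group received no damage, and the day 4 group a single dose of 550 cGy of whole body irradiation (SL-TBI in the labels) from a cesium source without hematopoietic rescue. In both groups cells positive for CD45, which all white blood cells carry on their surface, had been depleted with magnetic beads, and cells of several mice were pooled into each sample. The protocol in the labels calls the pooled cells thymic ECs without explaining the term. The description and cell type name non-hematopoietic stromal cells. Whether the 3 samples of each group were separate pools is not stated in the labels, so the p-values measure the spread between these samples, which may be technical. All probe sets were considered. They gave 18193 genes, of which 10937 were tested, and 10471 of these lay outside 16 marker lists of blood cells, stromal cells and cell division. The genes outside those lists are the subject of what follows. They are read against the marker lists to show how the loss of blood cell transcripts and the differences in stromal genes looked in the same arrays.

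The thymus is a scaffold of epithelial cells, fibroblasts and vessels in which T cells mature. Developing T cells are very sensitive to irradiation, whereas much of the scaffold survives and then supports the return of new T cells. A stromal preparation always carries some blood cell RNA, and on arrays normalized to one another the removal of an abundant RNA source raises the remaining transcripts relative to the whole. On such bulk arrays, fewer cells of a type and less RNA per cell cannot be told apart.

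Values are log2 GCRMA values, 1 log2 unit being a 2-fold difference, and a value under 4 was taken as below detection. A gene was called higher or lower where limma's adjusted p (Benjamini-Hochberg over all genes tested) was under 0.05. Ptprc, the gene of CD45, read 12.25, 11.96 and 12.45 on the untreated arrays and 4.18, 4.52 and 5.22 on the day 4 arrays, so the untreated preparation still held blood cell RNA although its label names non-hematopoietic stroma. The array means of the thymocyte and T cell markers were 8.24 to 8.56 in untreated and 3.71 to 3.86 at day 4, with 29 of 44 markers below detection on every day 4 array. Array means of the other markers were 8.14 to 8.88 and 8.68 to 8.96 for epithelium, 8.85 to 9.35 and 10.09 to 10.69 for fibroblasts, and 4.09 to 5.46 and 4.82 to 5.37 for endothelium, the highest untreated value being that of replicate 3. Epcam, the epithelial adhesion molecule, read 11.30, 11.56 and 10.69 in untreated and 11.12, 11.18 and 10.93 at day 4, with overlapping groups (difference -0.11, limma adjusted p 0.66). It counted as lower once untreated replicate 3 was left out (-0.35, adjusted p 0.033) and after centring on 4 stromal lists (-0.70, adjusted p 0.021). The same held after centring on fibroblasts (-1.41, limma adjusted p 3.5e-05). The 3-prime minus 5-prime value of the Actb control probe sets, which rises as RNA degrades, was 2.16 to 2.45 in untreated and 3.01 to 3.32 at day 4, and that of Gapdh 0.80 to 1.04 and 1.13 to 1.61 (two-sided exact permutation p 0.1 each, the smallest that 3 against 3 allows). Its part in the results below was not tested.

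Blood cell genes and division genes were lower by large factors, while genes outside the marker lists that were lower mostly differed by less than 2-fold. At day 4, 42.7% of the genes outside the lists were higher (4473 of 10471) and 19.7% were lower (2066), against 41.8% and 21.4% of all 10937 genes tested by limma, so 63.2% of all genes were called in 1 direction or the other. The groups did not overlap for 67.7% of all genes tested (7401). Named genes were chosen by their calls and in part by separate groups, so the separation given for them below is a description and no further result. Of the 133 tested genes of the blood lists 112 were lower and 5 higher, and of the 134 tested division genes 130 were lower and 2 higher. Of the 185 tested genes of the stroma lists 92 were higher and 27 lower, and the lists differed. Fibroblast markers gave 37 of the 92 higher genes. The list of medullary and keratinising epithelium gave 18 of the 27 lower genes, with 2 of its 38 tested genes higher and a median of -0.84. The median differences were -2.95 for blood, -3.23 for division, 0.56 for stroma and 0.21 for the genes outside the lists. Centring the arrays on the epithelial list, on 4 stromal lists (epithelium, fibroblasts, endothelium, pericytes and smooth muscle) or on the fibroblast list moved every difference by -0.295, -0.598 or -1.299. Each of these centrings lowers all differences at once, so they bear on the rises and cannot turn a fall. The median of the genes outside the lists turned negative under each of the 3, and that of the stroma lists under the latter 2.

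The size of the falls differed between the sets. Of the 112 lower blood genes, 49 fell by at least 16-fold and 11 by less than 2-fold. Of the 130 lower division genes, 42 fell by at least 16-fold and 4 by less than 2-fold. Outside the lists the order was inverted, with 33 of the 2066 lower genes at 16-fold or more, 189 between 4-fold and 16-fold, 478 between 2-fold and 4-fold, and 1366 (66.1%) under 2-fold. None of the 27 lower stroma genes (0) reached 16-fold. The median share of the untreated level left at day 4 was 2.57% for the lower thymocyte genes, 8.83% for all lower blood genes, 10.1% for lower division genes, 34.0% for lower stroma genes and 60.1% for lower genes outside the lists. Values below detection were used as read in these shares. With each such gene at the bound that the level of 4 gives, the shares in the same order were 4.92%, 12.4%, 14.2%, 34.6% and 60.9%, and the genes that fell by at least 16-fold numbered 37 for blood, 27 for division and 26 outside the lists.

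**Figure D1:**
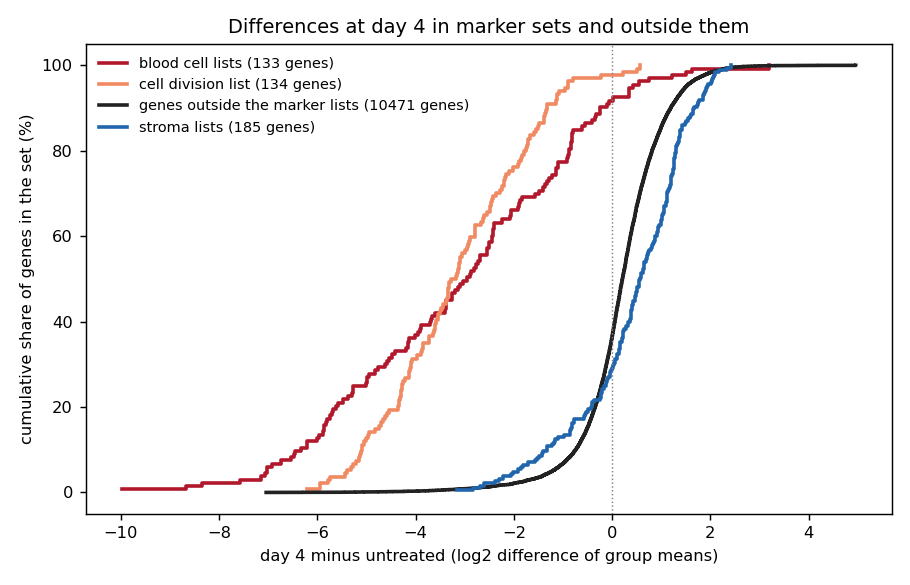
The x axis is the day 4 minus untreated difference of group means (log2) and the y axis the cumulative share of each set's tested genes in percent, for 133 blood cell genes, 134 division genes, 185 stroma genes and 10471 genes outside the lists. The blood and division curves lie far to the left (medians -2.95 and -3.23), and the curve of the genes outside the lists is steep around its median of 0.21, which turned negative after each of the 3 centrings on stromal lists.

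The levels reached at day 4 and day 7 differed between the sets as well. The median level of the lower blood genes was 8.32 in untreated, 3.88 at day 4 and 5.72 at day 7, and that of the lower division genes 7.76, 4.16 and 6.32. The lower genes outside the lists had a median of 8.14, 7.21 and 7.41. For the lower genes of medullary and keratinising epithelium, 18 of the 38 tested in that list, the medians were 6.98, 5.03 and 4.24, so day 7 lay below day 4 in this last set alone of these 4. Below detection on every day 4 array were 54 of the lower blood genes, 55 of the lower division genes, 3 of the lower stroma genes and 175 of the lower genes outside the lists, whereas 1433 of the latter had a day 4 mean of at least 6. The day 4 and day 7 differences share the untreated arrays, so levels are set side by side and no overlap between them is given.

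Outside the marker lists, 222 genes fell by at least 4-fold (2.12% of 10471) and 179 rose by at least 4-fold (1.71%). The 8 largest falls to below detection were Acap1, P2ry10, Gfi1, Skap1, F13a1, Plcxd2, Arhgap45 and Klhl6. Since genes of this kind pass the filter only through the other groups, a difference was built into their choice. No p is given for them, and the fall of the probe set used is given as a lower bound, computed against the level of 4. Acap1, a GTPase-activating protein for ARF6 in membrane recycling, read 10.53, 9.73 and 10.66 in untreated and 3.26, 3.37 and 3.17 at day 4, a fall of at least 79.2-fold. Its day 7 values of 6.99 to 7.78 lay between the other groups, and another of its probe sets differed by -3.48. P2ry10, a lymphocyte receptor for lysophospholipids, read 9.73, 9.34 and 9.79 and then 2.89, 2.76 and 2.86, at least 49.3-fold lower.

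Gfi1, a transcriptional repressor of blood cell development, fell by at least 27.1-fold, from 8.89, 8.36 and 9.03 to 2.56, 2.37 and 2.27. Skap1, an adaptor of T cell receptor signalling to integrins, read 8.48, 8.22 and 8.18 in untreated and 2.55 on each day 4 array, at least 19.6-fold lower, and a second probe set differed by -2.38. A value tied on 3 arrays has no spread. Tied day 4 values were found for 35 of all genes tested and for 7 of the lower genes outside the lists.

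F13a1, the A subunit of clotting factor XIII, made by platelets and macrophages, fell by at least 19.6-fold from 8.55, 7.88 and 8.45 to 2.58, 3.22 and 2.75. Plcxd2, a phospholipase C domain protein, fell by at least 19.8-fold, Arhgap45, known from blood cells, by at least 23.3-fold, and Klhl6, a kelch protein of B cell signalling, by at least 16.9-fold. In each of these 8 genes every day 7 array lay above every day 4 array and below every untreated array. As background, P2ry10, Gfi1, Skap1, F13a1, Arhgap45 and Klhl6 are known from lymphocytes, platelets or other blood cells, although no marker list held them. The array means of the thymocyte and T cell markers given above were lower on the same arrays. The part of residual blood cells in these 8 falls was not tested.

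Among the falls that stayed well measured at day 4, with a mean of at least 6, the 8 largest were Lbr, Abtb2, Rgs2, Hsph1, Cbl, Mid1, Dck and Rcsd1. Lbr, the lamin B receptor that tethers chromatin to the inner nuclear membrane and also acts in sterol synthesis, read 11.56, 11.04 and 11.66 in untreated and 7.80, 7.65 and 7.62 at day 4 (difference -3.73, SE 0.15, limma adjusted p 2.4e-07). All day 4 arrays lay below all untreated arrays, and day 7 arrays at 9.69 to 9.80 lay between them. Abtb2, an ankyrin repeat and BTB domain protein, read 9.90, 9.47 and 10.03 and then 6.13, 6.11 and 6.21 (difference -3.65, SE 0.20, adjusted p 1.2e-06 in limma). Its second tested probe set gave -3.10, and the mean of its probe sets -2.25.

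The promoter windows of Lbr and Abtb2, the leading 2 of these falls, are shown because neither gene was in the division list while division genes fell by a like factor. Both windows come from RefSeq on GRCm38.p6, run 5′ to 3′ along the gene from 250 bases before the start to 50 after it, and have in capitals CCAAT, the box bound by NF-Y, and TTTGAA, the core of the cell cycle genes homology region, on either strand (ATTGG and TTCAAA on the other). They are chr1:181842352-181842651 on the minus strand for Lbr and chr2:103566060-103566359 on the plus strand for Abtb2.
Lbr: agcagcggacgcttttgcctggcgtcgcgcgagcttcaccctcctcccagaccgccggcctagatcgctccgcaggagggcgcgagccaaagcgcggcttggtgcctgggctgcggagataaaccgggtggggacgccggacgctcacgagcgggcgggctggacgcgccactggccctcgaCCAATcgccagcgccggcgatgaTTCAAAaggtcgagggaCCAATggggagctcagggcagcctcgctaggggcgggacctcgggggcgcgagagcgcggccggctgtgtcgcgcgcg
Abtb2: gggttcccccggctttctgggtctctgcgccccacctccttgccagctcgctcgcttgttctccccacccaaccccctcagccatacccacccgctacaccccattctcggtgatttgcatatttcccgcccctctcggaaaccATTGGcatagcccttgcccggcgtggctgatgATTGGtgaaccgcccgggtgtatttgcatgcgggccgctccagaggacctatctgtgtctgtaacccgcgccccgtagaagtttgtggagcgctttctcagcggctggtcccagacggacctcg
With the start counted as base 0, Lbr held CCAAT at -68 and -28 and TTTGAA between them at -45, and Abtb2 held CCAAT at -106 and -74. CCAAT was found in 37.4% and TTTGAA in 17.9% of all 32851 windows, and in 37.1% and 12.1% of the 11365 windows of genes tested. The motifs can share letters, which they did not in these windows. Among the 124 windows of division genes the shares were 70.2% and 46.8%. Among the 239 windows of the 179 genes (of 222) outside the lists that fell at least 4-fold they were 38.5% and 12.1%, and among the 167 windows of 133 genes (of 179) that rose at least 4-fold 34.1% and 16.8%. A match of letters is a description, not a bound site.

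Rgs2, an inhibitor of G protein signalling induced by many stimuli, read 10.49, 10.61 and 10.65 in untreated and 7.74, 7.16 and 6.79 at day 4, with day 7 at 7.96 to 8.48 (difference -3.35, SE 0.22, limma adjusted p 4.4e-06). The mean of the 4 Rgs2 probe sets, of which 3 passed the filter, gave -2.22. Hsph1, a heat shock chaperone of the HSP110 family, read 12.57, 12.38 and 13.04 and then 8.78, 9.82 and 9.92 (-3.16, SE 0.29, adjusted p 2.4e-05 in limma). Day 4 replicate 1 was the lowest of its arrays, and day 7 at 11.85 to 11.96 lay above every day 4 array and under every untreated array. Dck, deoxycytidine kinase of nucleoside salvage, read 12.46, 11.72 and 12.25 and then 8.99, 9.50 and 9.29 (-2.88), with day 7 at 10.48 to 10.68.

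Cbl, a ubiquitin ligase that restrains receptor signalling, fell by 3.02 on the log2 scale, from 10.74, 10.15 and 10.83 to 7.73, 7.62 and 7.31. The mean of the Cbl probe sets gave -2.04. Mid1, a microtubule-bound ubiquitin ligase, fell by 3.01, from 10.03, 8.11 and 9.56 to 6.08, 6.10 and 6.48, with untreated replicate 2 well under the other two. The mean of the 3 Mid1 probe sets, of which 1 passed the filter, gave -1.0. Rcsd1, an actin capping protein regulator, fell by 2.83 from 9.79, 9.26 and 9.63 to 6.98, 6.69 and 6.50. The mean of the Rcsd1 probe sets gave -1.81.

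**Figure D2:**
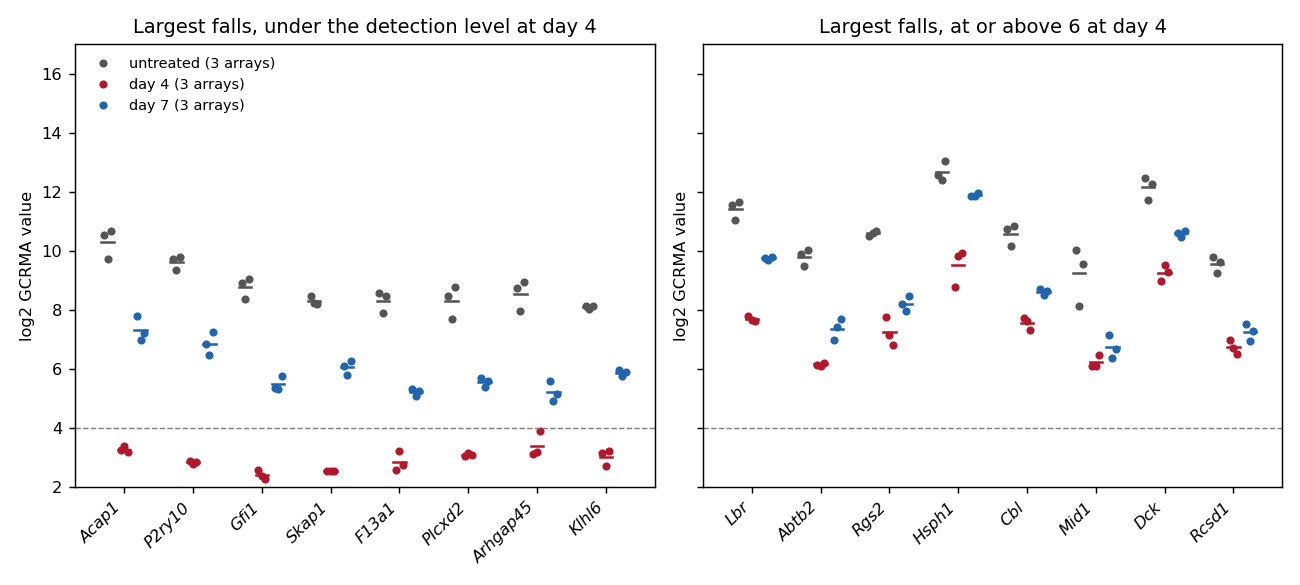
Points are single arrays and short lines group means (3 arrays each) of untreated, day 4 and day 7, the y axis is the log2 GCRMA value and the dashed line the detection level of 4. In the left panel all 8 genes sit under 4 at day 4 and between the groups at day 7. In the right panel the 8 genes sit above 6 at day 4, and Hsph1 is at 11.85 to 11.96 by day 7.

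Genes of RNA splicing and chromatin were mostly lower by moderate factors, beside 21.4% lower and 41.8% higher over all genes tested. Of 41 tested splicing genes (42 of 48 on the array), 31 were lower and 1 higher, a median of -0.63 beside 0.20 for all genes. Srsf3, a serine and arginine rich splicing factor, read 12.55, 12.30 and 12.69 in untreated and 10.89, 10.72 and 10.86 at day 4 (difference -1.69, limma adjusted p 4.1e-06), and the groups stood well apart. Its 6 probe sets ranged from -1.71 to -0.04. Hnrnpa2b1, an RNA binding protein of splicing and transport, fell by 1.04 (13.16, 13.05 and 13.09 to 12.00, 12.07 and 12.12), with probe sets between -1.04 and -0.25. Hnrnpd, which binds AU-rich RNA, fell by 1.26, but another of its probe sets gave 0.33.

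Of 49 tested chromatin regulators (52 of 57 on the array), 31 were lower and 7 higher (median -0.41). The shares over all genes tested were 21.4% lower and 41.8% higher. Ezh2, the histone H3 lysine methyltransferase of the Polycomb complex, fell most clearly, from 10.14, 9.53 and 10.05 to 5.94, 5.86 and 5.60 (difference -4.11, SE 0.17, limma adjusted p 3.1e-07). That left 5.81% of the untreated level, against a median of 10.1% for the lower division genes, or 14.2% with bounds. Day 7 arrays at 7.80 to 8.16 lay between the groups. Anp32e, a chaperone that removes the histone variant H2A.Z, fell by 2.37 (11.57, 11.10 and 11.53 to 9.03, 9.13 and 8.93). Baz1a, a subunit of a nucleosome spacing complex, fell by 1.61, and its second probe set gave -0.85.

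The biosynthetic lists held smaller falls. Of 30 tested genes of nucleotide and one-carbon synthesis (31 of 34 on the array), 16 were lower and 4 higher (median -0.32). Besides Dck, Dut, which removes dUTP from the nucleotide pool, fell by 2.43 from 10.26, 9.96 and 10.25 to 7.62, 7.78 and 7.76, and Ppat, the enzyme that commits to purine synthesis, differed by -1.56, with a second probe set at -0.10. The mean of the 2 Dut probe sets, of which 1 passed the filter, gave -1.20. Of 41 genes of ribosome biogenesis (42 of 43 on the array) 13 were lower and 3 higher (median -0.16), a share of lower genes nearer the background of 21.4%. Wdr12, a factor of large ribosomal subunit assembly, differed by -1.28 and Nolc1, a nucleolar chaperone, by -1.07. Ddx21, an RNA helicase of the nucleolus, fell by 0.74 and read 8.67, 8.68 and 8.72 at day 7 against 8.71, 8.69 and 8.77 in untreated.

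Aminoacyl-tRNA synthetases changed least among these, with 6 of 21 lower and 2 higher (21 of 23 on the array, median -0.08). All genes tested gave 21.4% lower and 41.8% higher, so the share of lower synthetases was not far above the background. Gars and Mars1, which charge glycine and methionine tRNAs, differed by -0.55 and -0.31, both called lower. Iars, for isoleucine, fell by 0.54, a call lost with the mean of its probe sets (-0.17, adjusted p 0.08). Genes in common use as references were not level either, with 6 of 15 lower and 3 higher (15 of 20 on the array, median -0.15). Actb, cytoplasmic actin, fell by 0.82 from 14.12, 14.01 and 14.14 to 13.42, 13.10 and 13.28, and Tubb5, a tubulin of dividing cells, differed by -1.53. Ipo8, a nuclear import factor, was higher by 0.58, but turned to -0.72 and -0.02 after centring on the fibroblast and the 4 stromal lists, and its call was lost after centring on epithelium and with the mean of its probe sets.

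The largest rises outside the lists were Cox8b, Cyp2e1, Mmp11, Car3, Sned1, Cpxm1, Ak1, Adipoq, Vegfd and Sfrp2. All 10 remained called higher after each centring, by between 1.91 and 3.66 on the fibroblast list, so each rose more than the fibroblast markers did on average. Mmp11, the stromal protease stromelysin-3, read 4.26, 4.63 and 4.63 in untreated and 8.76, 8.29 and 8.56 at day 4 (difference 4.03, SE 0.18, limma adjusted p 4.2e-07). Day 7 arrays at 6.44 to 7.00 lay between the groups. Cpxm1, a secreted carboxypeptidase-like protein, read 6.85, 7.45 and 7.12 and then 10.99, 10.53 and 11.19 (3.76, SE 0.22, adjusted p 1.8e-06 in limma), with day 7 at 9.02 to 9.49. Sned1, a matrix protein with fibronectin type III domains, read 3.23, 4.48 and 3.74 and then 7.73, 7.09 and 7.96 (3.78).

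Sfrp2, a secreted modulator of WNT signalling, read 6.11, 7.11 and 6.78 in untreated and 9.84, 9.59 and 10.22 at day 4 (difference 3.21, limma adjusted p 9.8e-06). Vegfd, a growth factor of lymphatic vessels, read 3.97, 5.13 and 4.29 and then 7.49, 7.60 and 8.14, and its 3 probe sets agreed at 3.06 to 3.34. Ak1, adenylate kinase of energy transfer, read 3.70, 4.18 and 3.68 and then 7.14, 6.81 and 7.63 (3.34), with day 7 at 6.28 to 6.31. The mean of the 2 Ak1 probe sets, of which 1 passed the filter, gave 1.67. In each of these 3 genes no day 4 array overlapped an untreated array, and day 7 lay between.

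The other 4 rises are genes known, as background, from fat among other tissues. Cox8b, a respiratory chain subunit found in muscle and brown fat, read 3.14, 3.41 and 2.97 in untreated and 8.49, 7.86 and 8.04 at day 4, at least 17.5-fold higher, with day 7 at 6.43 to 6.99. Cyp2e1, a cytochrome P450 of ethanol and ketone metabolism, read 2.85, 3.27 and 2.85 and then 8.42, 6.80 and 6.33, at least 9.06-fold higher, or at least 5.91-fold without day 4 replicate 1. Both were below detection on all untreated arrays and passed the filter through the irradiated groups, so a difference was built into their choice. Car3, a carbonic anhydrase abundant in fat and muscle, read 6.50, 7.93 and 7.03 and then 12.55, 9.84 and 10.62 (3.85, adjusted p 0.0011 in limma), and 3.07 without day 4 replicate 1. The mean of the Car3 probe sets gave 2.48. Adipoq, the fat cell hormone adiponectin, read 4.15, 4.80 and 3.90 and then 9.39, 6.34 and 7.10 (3.32, adjusted p 0.0037), and differed by 2.43 without day 4 replicate 1 and by 3.96 without day 4 replicate 2. In all 4 genes day 4 replicate 1 was the highest array, by the smallest margin in Cox8b.

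The windows of Cox8b and Cyp2e1, the leading 2 rises, are printed in the same way as those of the leading falls. They are chr7:140900397-140900696 on the minus strand for Cox8b and chr7:140763569-140763868 on the plus strand for Cyp2e1, on GRCm38.p6 (RefSeq).
Cox8b: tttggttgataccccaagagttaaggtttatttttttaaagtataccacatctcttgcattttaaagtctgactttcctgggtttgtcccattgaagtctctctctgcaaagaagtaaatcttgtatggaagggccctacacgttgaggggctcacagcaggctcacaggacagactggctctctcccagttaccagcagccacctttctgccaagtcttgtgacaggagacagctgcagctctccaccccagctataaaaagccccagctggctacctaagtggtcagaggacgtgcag
Cyp2e1: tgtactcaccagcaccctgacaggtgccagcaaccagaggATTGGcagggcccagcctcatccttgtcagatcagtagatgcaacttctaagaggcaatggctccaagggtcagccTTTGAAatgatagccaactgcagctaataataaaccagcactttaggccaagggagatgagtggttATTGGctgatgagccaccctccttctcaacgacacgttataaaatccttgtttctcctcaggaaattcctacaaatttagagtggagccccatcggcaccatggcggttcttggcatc
Neither motif was found in the Cox8b window. Cyp2e1 held CCAAT on the other strand at -210 and -68 and TTTGAA at -134, the same numbers of matches as Lbr, and the Adipoq window held 3 CCAAT.

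A list of 18 adipocyte genes, drawn up after these values were seen, showed the same array apart. It holds Adipoq, 1 of the genes already seen, so its counts and means partly repeat those values. Of its 15 genes on the array, day 4 replicate 1 detected 10, replicate 2 detected 3 and replicate 3 detected 6, against 2 or 3 on untreated arrays. Day 7 replicates 1, 2 and 3 detected 6, 7 and 4. Of the 7 tested genes 3 were called higher and 0 lower, beside 41.8% and 21.4% of all genes tested. The mean level was 5.66 on day 4 replicate 1, 3.86 and 4.36 on replicates 2 and 3, and 3.53 to 3.72 on untreated arrays. On day 7 replicates 1, 2 and 3 it was 4.21, 4.53 and 3.92. Ucp1, the uncoupling protein of brown fat, read 7.70, 3.18 and 4.62 at day 4 and 2.86 on each untreated array. It read 4.14, 5.98 and 3.01 at day 7, and its day 4 difference was not called (limma adjusted p 0.087). Retn, the fat cell hormone resistin, read 5.51 on day 4 replicate 1 and was below detection on every other array. Cidea, a lipid droplet protein, read 6.93, 3.45 and 4.81 at day 4 and was below detection on all untreated arrays. Its call (limma adjusted p 0.042) was lost without day 4 replicate 1 (adjusted p 0.11). Pparg, also in this list, kept its call there (0.65, adjusted p 0.028). Lep and Lipe, the leptin and hormone sensitive lipase genes, were at the floor of 2.27 on all arrays. Cox8b was high on every day 4 array, at 8.49, 7.86 and 8.04, with replicate 1 the highest here too. The part of adipocytes in the other rises was not tested.

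**Figure D3:**
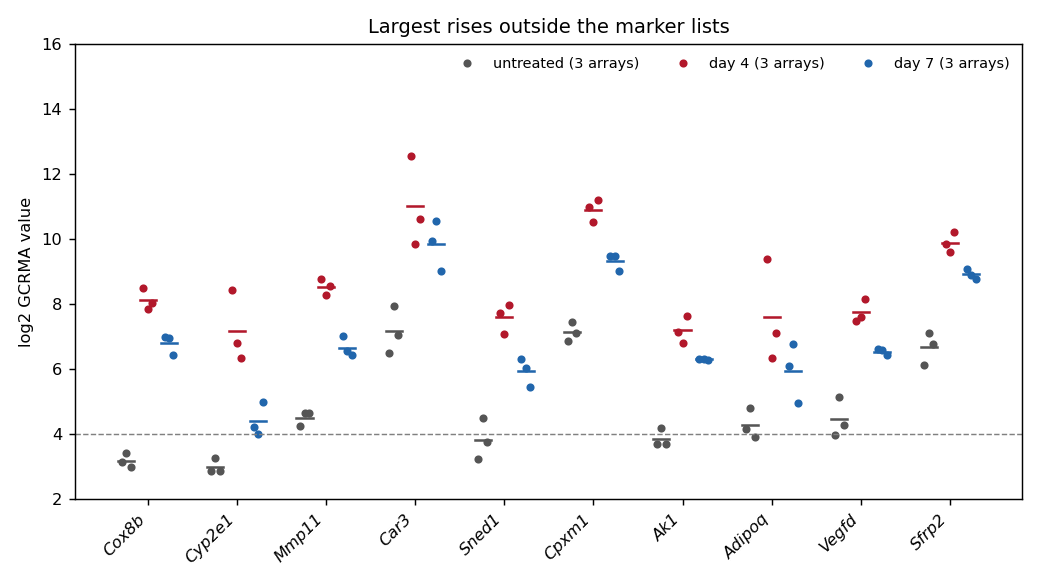
Points are single arrays and short lines group means (3 arrays each), the y axis is the log2 GCRMA value and the dashed line the detection level of 4. All day 4 arrays of the 10 genes lie above all untreated arrays, and the day 4 points of Cyp2e1, Car3 and Adipoq spread most, from 6.33 to 8.42 in Cyp2e1.

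**Figure D4:**
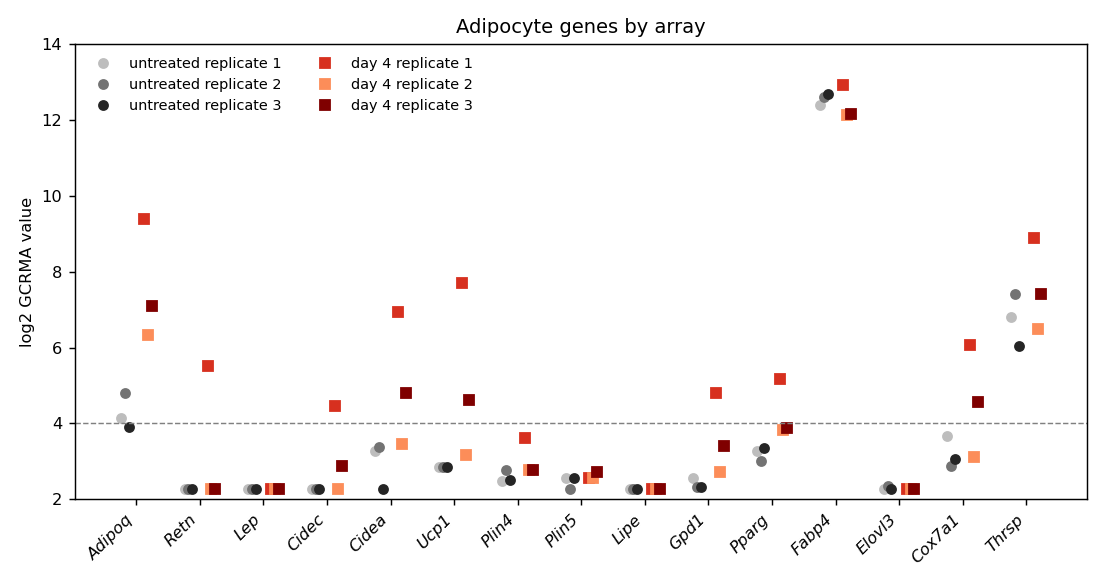
The y axis is the log2 GCRMA value of 15 adipocyte genes on each untreated array (circles) and day 4 array (squares), with the detection level of 4 dashed. Day 4 replicate 1 is the highest day 4 array for Adipoq, Retn, Cidea and Ucp1, while Fabp4, also made by other cells, reads 12.12 to 12.91 on all 6 arrays.

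Genes of detoxification were higher as a block. Of 52 tested glutathione transferase and xenobiotic genes (62 of 68 on the array), 40 were higher and 1 lower, with a median of 1.20 that fell to -0.10 after centring on fibroblasts, where 12 remained higher. The background of higher genes was 41.8%. Ephx1, an epoxide hydrolase, read 8.58, 9.20 and 8.85 in untreated and 11.20, 10.97 and 11.28 at day 4 (difference 2.27, SE 0.16, limma adjusted p 5.0e-06), with separate groups and day 7 at 10.51 to 10.65. Fmo5, a flavin monooxygenase, rose by 1.63 (6.81, 6.91 and 6.78 to 8.39, 8.58 and 8.41). The single lower gene was Mgst2, a membrane-bound glutathione transferase, which fell by 3.81 from 8.10, 7.75 and 7.98 to 4.42, 4.26 and 3.74, and read 6.00 to 6.15 at day 7.

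The fibroblast markers moved with these rises. Of their 39 tested members 37 were higher and 1 lower, with a median of 1.31, and their array means are given above. Centring on that list sets its mean difference to 0 by construction, so a rise that remains is larger than that of the average fibroblast marker. Only 247 of the 4473 higher genes outside the lists remained higher under all 3 centrings on stromal lists. After centring on epithelium 1871 genes outside the lists were higher (17.9%) and 2211 lower (21.1%), after centring on 4 stromal lists 1272 (12.1%) and 4632 (44.2%), and after centring on fibroblasts 247 (2.36%) and 8078 (77.1%). Over all genes tested the shares were 17.7% and 22.9%, 12.2% and 45.2%, and 2.4% and 77.3%. The median of all genes was -0.10, -0.40 and -1.10 in turn. Which scaling stands closest to the amount of RNA per stromal cell was not measured.

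Developmental regulators were among the lists with the most rises, beside 41.8% higher and 21.4% lower over all genes tested. Many members of these and some later lists were too dim to be tested, and the median over all members on the array is then given as well, beside 0.00 for all 18193 genes. Of 24 tested homeobox and T-box genes (61 of 68 on the array), 19 were higher and 0 lower, with a median of 1.29, or 1.24 with genes below detection at their bounds, that turned to -0.01 after centring on fibroblasts. Over all 61 genes on the array the median was 0.12. Hoxb3, an anterior homeobox gene, read 4.62, 5.10 and 4.81 in untreated and 6.42, 6.39 and 6.74 at day 4 (difference 1.67, limma adjusted p 1.8e-05), with separate groups. Pbx3, a partner of HOX proteins, rose by 1.42 and read 9.47 to 9.53 at day 7 against 9.52 to 9.73 at day 4. Meis1, another such partner, rose by 1.29 (8.92, 9.14 and 9.07 to 10.36, 10.37 and 10.27) but turned to -0.01 after centring on fibroblasts.

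Primary cilium and Hedgehog genes were higher in part, beside 41.8% higher and 21.4% lower over all genes tested. Of 34 tested cilium genes (38 of 42 on the array), 26 were higher and 1 lower, with a median of 0.65 that turned to -0.65 after centring on fibroblasts. Evc2, a ciliary protein that promotes Hedgehog signalling, read 5.43, 6.22 and 5.48 in untreated and 7.80, 7.84 and 8.04 at day 4 (difference 2.18, limma adjusted p 2.4e-05), and it stayed higher under each centring. Bbs2, a subunit of the ciliary BBSome, rose by 1.84 and Ift27, a transport GTPase of the cilium, by 1.44.

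Of 11 tested Hedgehog genes (18 of 19 on the array), 7 were higher and 1 lower, with a median of 0.52 that turned to -0.08 and -0.78 after centring on 4 stromal lists and on fibroblasts. The median of all 18 was 0.07, and over all genes tested 41.8% were higher and 21.4% lower. Gli2, a transcription factor of the pathway, read 4.30, 4.65 and 4.52 and then 6.00, 6.01 and 6.05 (1.53), while its second probe set gave 0.10. Cdon, a co-receptor, rose by 1.58, from 7.09, 7.86 and 7.51 to 8.96, 8.69 and 9.55. Boc, a related co-receptor, rose by 1.11 but turned to -0.18 after centring on fibroblasts.

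Hippo pathway genes were mostly higher, beside 41.8% higher and 21.4% lower over all genes tested. Of their 28 tested members (31 of 32 on the array), 18 were higher and 3 lower, with a median of 0.75 that turned to -0.55 after centring on fibroblasts. Amotl1, an angiomotin that binds YAP, rose by 2.09 from 9.35, 9.47 and 9.63 to 11.59, 11.64 and 11.49 (limma adjusted p 4.8e-07). Yap1, the transcriptional coactivator of the pathway, rose by 1.31 from 8.24, 8.34 and 8.30 to 9.48, 9.70 and 9.62. After centring on fibroblasts its difference was 0.01 and the call was lost. Stk4, the upstream kinase MST1, abundant in lymphocytes, fell by 2.22 from 11.83, 11.47 and 11.75 to 9.42, 9.57 and 9.40. No day 4 array of these 3 genes overlapped an untreated array.

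Cell surface and adhesion lists were mostly higher, beside 41.8% higher and 21.4% lower over all genes tested. Of 40 tested genes of heparan and chondroitin sulfate (50 of 52 on the array), 30 were higher and 3 lower, with a median of 0.79 that turned to -0.50 after centring on fibroblasts. Sulf2, a heparan sulfate endosulfatase, read 7.39, 7.52 and 7.13 in untreated and 9.34, 8.96 and 9.54 at day 4 (difference 1.93, limma adjusted p 1.5e-05), and its probe sets ranged from 0.62 to 2.08. Its relative Sulf1 rose by 1.32 (0.02 after centring on fibroblasts, the call lost) and read 9.69 to 9.87 at day 7 against 9.62 to 9.93 at day 4. Csgalnact1, which starts chondroitin chains, rose by 1.35.

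Of 28 tested neural-type adhesion genes and protocadherins (55 of 59 on the array), 21 were higher and 1 lower, with a median of 0.89 that turned to -0.41 after centring on fibroblasts. The median of all 55 was 0.06, and over all genes tested 41.8% were higher and 21.4% lower. Tenm4, a teneurin adhesion receptor, read 5.72, 6.17 and 6.20 and then 8.10, 8.26 and 8.07 (2.12, adjusted p 5.0e-06 in limma), with 3 probe sets at 1.97 to 2.13. Tenm3, of the same family, rose by 1.31 (0.01 after centring on fibroblasts, the call lost). Nlgn1, a neuroligin of cell contacts, rose by 1.44 from 5.59, 5.72 and 5.73 to 7.04, 7.27 and 7.06, and stood at 7.24 to 7.29 at day 7.

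Of 25 tested nuclear receptors (38 of 40 on the array), 17 were higher and 4 lower, with a median of 0.67, or 0.46 with bounds, that turned to -0.63 after centring on fibroblasts. The median of all 38 was 0.36, and over all genes tested 41.8% were higher and 21.4% lower. Differences in the list ran from -4.70 to 2.02, so the largest was a fall. Nr4a1 fell by 4.70, from 10.13, 9.33 and 10.67 to 4.45, 5.67 and 5.91 (limma adjusted p 2.0e-05). Rxra, the shared partner of many nuclear receptors, read 6.08, 6.44 and 5.97 in untreated and 7.81, 7.64 and 7.70 at day 4 (difference 1.55, limma adjusted p 1.3e-05). The mean of the 3 Rxra probe sets, of which 1 passed the filter, gave 0.52. Thra, a thyroid hormone receptor, rose by 1.46, and its probe sets ranged from 0.57 to 1.46. Rarb, a retinoic acid receptor, was below detection on all untreated arrays and read 4.26, 4.02 and 4.69 at day 4, at least 1.25-fold higher. It passed the filter only through the day 4 arrays, so a difference was built into its choice.

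Of 16 tested imprinted genes (33 of 38 on the array), 13 were higher and 1 lower, with a median of 0.95 that turned to -0.35 after centring on fibroblasts. The median of all 33 was 0.21, and over all genes tested 41.8% were higher and 21.4% lower. Peg3, a zinc finger protein expressed from the paternal allele, read 6.74, 7.44 and 6.76 and then 8.24, 8.83 and 8.42 (1.51, adjusted p 0.00035 in limma). Grb10, an adaptor that restrains growth factor receptors, rose by 1.43, and Ppp1r9a, an actin-binding regulator of protein phosphatase 1, by 1.48 with probe sets from 0.24 to 1.48. No day 4 array of these 3 genes overlapped an untreated array. With only 16 of 33 genes bright enough to be tested, the list is described in part.

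Metal ion transport genes were mostly higher, while the prostaglandin, potassium channel, carbonic anhydrase and aquaporin lists leaned less to 1 side. Their counts are read beside 41.8% higher and 21.4% lower over all genes tested. Of 30 tested metal ion transport genes (38 of 40 on the array), 18 were higher and 1 lower, with a median of 0.47 that turned to -0.13 and -0.83 after centring on 4 stromal lists and on fibroblasts. The median of all 38 was 0.26. Slc39a8, a zinc and manganese importer, read 6.34, 6.68 and 6.78 in untreated and 8.44, 8.54 and 8.38 at day 4 (difference 1.85, limma adjusted p 1.4e-05). Steap2, a metalloreductase, was at least 1.49-fold higher, but passed the filter only through the irradiated groups, so a difference was built into its choice. Slc30a7, a zinc transporter of the Golgi, rose by 1.04, turned to -0.26 after centring on fibroblasts, and had another probe set at -0.21.

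Of 21 tested prostaglandin genes (32 of 34 on the array), 10 were higher and 5 lower, with a median of 0.52 that turned to -0.08 and -0.78 under the same centrings. Over all 32 the median was 0.03. Pla2g7, the phospholipase that degrades platelet activating factor, read 4.76, 5.42 and 4.84 and then 7.40, 6.95 and 7.08 (2.14, adjusted p 1.7e-05 in limma). Ptger4, a prostaglandin E2 receptor, fell by 1.14 from 9.14, 9.24 and 9.49 to 8.15, 8.26 and 8.02. Ptges2, a prostaglandin E synthase, rose by 1.22 but turned to -0.08 after centring on fibroblasts.

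Of 16 tested potassium channels (41 of 43 on the array), 8 were higher and 6 lower, with a median of 0.36 that turned to -0.24 and -0.94 under those centrings. Over all 41 the median was 0.00. Kcnn4, a calcium-activated channel known from T cells, fell by 4.43 from 8.97, 8.36 and 8.95 to 3.83, 4.66 and 4.49, and its second probe set gave -2.29. Kcnj15, an inward rectifier, rose by 1.71 from 9.57, 9.58 and 9.02 to 10.98, 11.39 and 10.92 and read 9.53 to 9.67 at day 7, overlapping untreated. Kcnk2, a stretch-sensitive channel, rose by 1.08 but turned to -0.22 after centring on fibroblasts.

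Of 12 tested carbonic anhydrases and aquaporins (22 of 22 on the array), 6 were higher and 2 lower, with a median of 0.51 that turned to -0.09 and -0.79. Over all 22 the median was 0.05. Besides the rise of Car3, Car2, the widespread cytosolic enzyme, fell from 5.88, 6.02 and 6.84 to below detection, at least 4.76-fold, and Car4, the membrane-anchored form, fell by 1.32 from 4.54, 5.28 and 4.67 to 4.12, 3.44 and 2.96. Car2 passed the filter only through the untreated and day 7 arrays. Car4 read 5.32, 5.87 and 5.36 at day 7, above every untreated array.

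**Figure D5:**
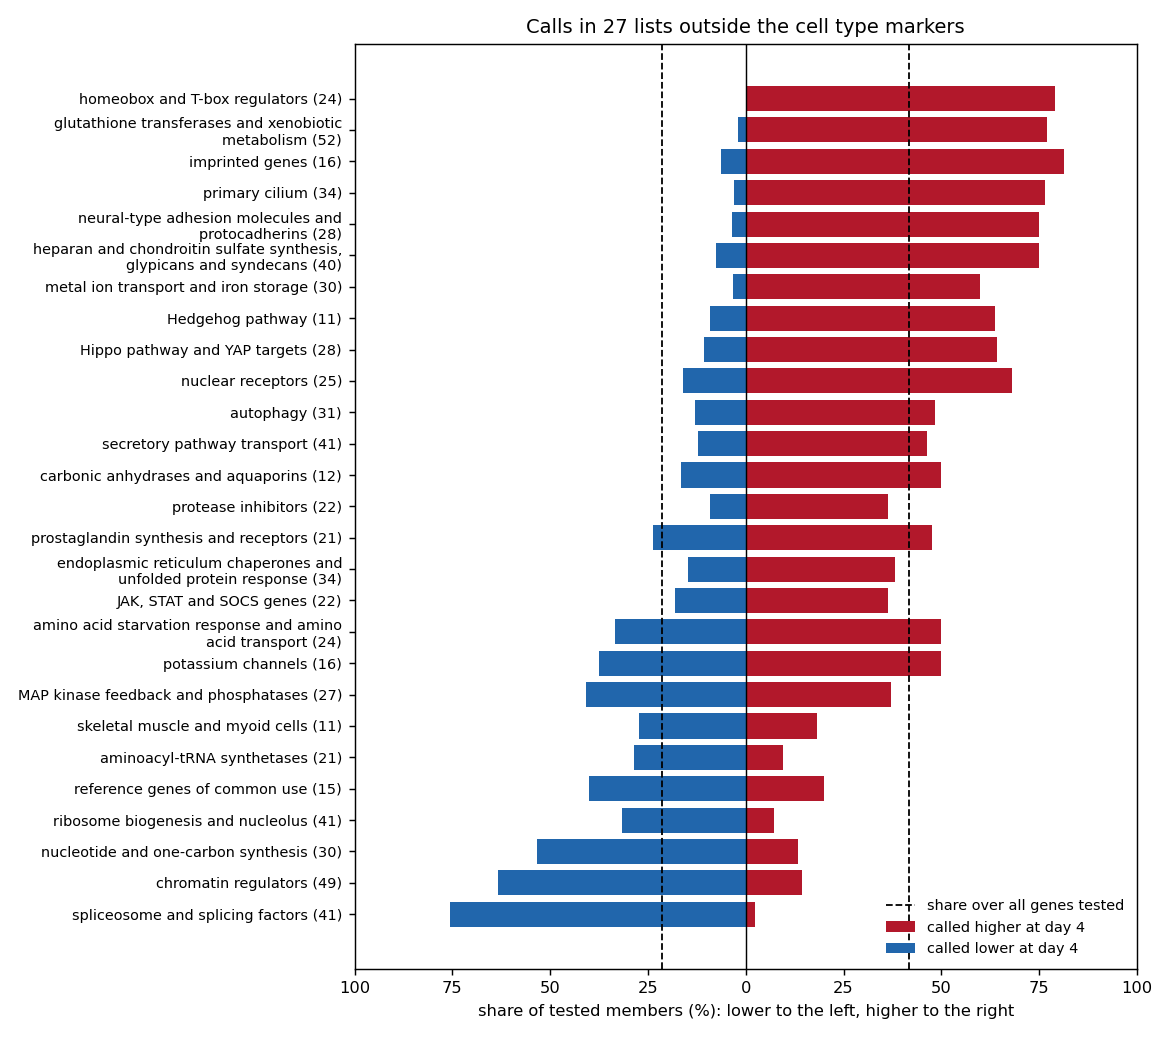
Bars give the percent of tested members (number in brackets) of 27 lists called higher (right) or lower (left) at day 4, and dashed lines the shares over all genes tested, 41.8% higher and 21.4% lower. Splicing and chromatin lists extend left past the line, and homeobox, xenobiotic, imprinted, cilium, adhesion and heparan sulfate lists extend right past it. The medians of those 6 lists on the right turned negative after centring on fibroblasts.

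Secretion, protein folding and autophagy were near the background of 41.8% higher. Of 34 tested genes of endoplasmic reticulum chaperones and the unfolded protein response (35 of 35 on the array), 13 were higher and 5 lower, with a median of 0.15 that turned to -0.15, -0.45 and -1.15 after centring on epithelium, 4 stromal lists and fibroblasts. Its 3 clearest members all fell. Edem1, which sends misfolded glycoproteins to degradation, read 10.57, 9.89 and 10.56 in untreated and 8.03, 8.02 and 8.03 at day 4 (difference -2.32, limma adjusted p 7.6e-06), with day 7 at 8.53 to 8.70. Eif2ak3, the stress kinase PERK, differed by -1.56, and Herpud1, of the degradation complex, by -0.57. The mean of the 3 Eif2ak3 probe sets, of which 1 passed the filter, gave -0.58.

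Of 41 tested secretory transport genes (43 of 44 on the array), 19 were higher and 5 lower, with a median of 0.15 that turned to -0.14, -0.45 and -1.15 under those centrings. Kdelr1, a retrieval receptor for resident proteins, rose by 0.99 from 9.13, 9.12 and 8.95 to 9.99, 9.98 and 10.19, but turned to -0.31 after centring on fibroblasts. Golgb1, a Golgi tether, and Creb3l2, a transcription factor of secretory capacity, rose by 0.95 and 0.90 and turned to -0.35 and -0.40 there. The mean of the 3 Golgb1 probe sets, of which 1 passed the filter, gave 0.32.

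Of 31 tested autophagy genes (34 of 36 on the array), 15 were higher and 4 lower, with a median of 0.24 that turned to -0.05, -0.35 and -1.05. Atg4c, a protease of autophagosome formation, rose by 1.19 from 6.98, 6.86 and 6.74 to 8.04, 8.11 and 8.00, but turned to -0.11 after centring on fibroblasts. Gabarapl1, of the autophagosome membrane, rose by 0.99 (-0.30 after that centring) and read 9.56 to 9.59 at day 7 against 9.38 to 9.53 at day 4. Wipi1, a phosphoinositide-binding autophagy protein, rose by 0.98 (-0.32 after that centring), with probe sets from -0.04 to 1.04.

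Amino acid and signalling lists held calls in both directions, beside 41.8% higher and 21.4% lower over all genes tested. Of 24 tested genes of amino acid starvation and transport (28 of 29 on the array), 12 were higher and 8 lower, with a median of 0.30 that turned to -0.30 and -1.0 after centring on 4 stromal lists and fibroblasts. Slc38a1, a glutamine transporter, fell by 3.12 from 8.63, 8.27 and 8.75 to 5.67, 5.42 and 5.20 (limma adjusted p 6.3e-07). Slc7a11, the cystine importer, fell by 1.55 from 5.93, 5.74 and 5.92 to 4.29, 4.30 and 4.35 and read 3.84 to 4.25 at day 7. Slc1a4, a neutral amino acid transporter, rose by 1.67 from 7.35, 7.56 and 7.44 to 8.98, 9.15 and 9.23, with another probe set at 0.13.

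Of 27 tested MAP kinase feedback genes (32 of 32 on the array), 11 were lower and 10 higher (median -0.28). Dusp2, a nuclear phosphatase induced in T cells, read 6.25, 6.01 and 6.44 in untreated and was below detection at day 4, at least 4.71-fold lower, and Rgs1, a G protein regulator of lymphocytes, was at least 2.88-fold lower. Both were also below detection on all day 7 arrays. They passed the filter only through the untreated arrays, so a difference was built into their choice. Rgs4, of the same family, rose by 2.38 from 7.49, 7.78 and 7.21 to 9.80, 10.11 and 9.72 (limma adjusted p 4.3e-06) and read 7.80 to 8.02 at day 7.

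Of 22 tested JAK, STAT and SOCS genes (25 of 26 on the array), 8 were higher and 4 lower, with a median of 0.22 that turned to -0.07, -0.38 and -1.08 after centring on epithelium, 4 stromal lists and fibroblasts. Both shares lay under those of all genes tested, 41.8% higher and 21.4% lower. Osmr, the oncostatin M receptor, rose by 1.47 from 9.40, 9.64 and 9.53 to 11.01, 11.03 and 10.93 (limma adjusted p 2.3e-06). Its call was lost after centring on fibroblasts (0.17). The mean of the 3 Osmr probe sets, of which 1 passed the filter, gave 0.74. Stat5b, a signal transducer of cytokine receptors, fell by 1.43 from 8.98, 8.35 and 9.02 to 7.50, 7.39 and 7.17. Pias3, an inhibitor of STAT signalling, rose by 1.12 but turned to -0.18 after centring on fibroblasts.

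Of 22 tested protease inhibitors (37 of 44 on the array), 8 were higher and 2 lower, with a median of 0.09 that turned to -0.21, -0.51 and -1.21. Here too both shares lay under the 41.8% higher and 21.4% lower of all genes tested. Over all 37 the median was 0.02. Serping1, the complement C1 inhibitor, rose by 1.80 from 10.24, 11.10 and 10.58 to 12.44, 12.19 and 12.70. Serpina3n, an acute phase inhibitor, rose by 1.84 from 4.49, 5.58 and 4.68 to 6.55, 6.86 and 6.87 and read 4.71 to 5.38 at day 7, and Itih5, a hyaluronan-binding inhibitor, rose by 1.53.

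Muscle genes were mostly too dim. Of 46 on the array 11 were tested, 2 higher and 3 lower, with a median of 0.07 that turned to -0.23, -0.53 and -1.23. Over all 46 the median was 0.00. Pgam2, the muscle phosphoglycerate mutase, rose by 2.34 from 4.19, 5.18 and 4.18 to 6.84, 6.81 and 6.91. Ttn, the giant sarcomere protein titin, read 5.48, 5.84 and 5.08 in untreated and fell to below detection, at least 2.77-fold. It passed the filter mainly through the untreated arrays, so a difference was built into its choice. The other higher member was Cox8b, described above.

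Single genes of the marker lists stood out. Of the stroma lists, the 6 largest falls were Fli1, Icam2, Crp, Thy1, Csn1s2a and Flg. Fli1, an ETS factor of endothelium that T cells also express, read 8.33, 8.06 and 8.64 in untreated, 5.38, 5.0 and 5.15 at day 4 (difference -3.16, SE 0.15, limma adjusted p 5.8e-07) and 8.15, 8.10 and 8.16 at day 7, so that day 7 lay within the untreated range. Icam2, an adhesion molecule of endothelium and lymphocytes, fell by 2.84 and read 7.38 to 7.76 at day 7 against 7.48 to 7.86 in untreated. Thy1, in the fibroblast list but also a thymocyte surface protein, read 10.75 to 11.30 in untreated and 8.31, 8.24 and 8.66 at day 4 (-2.61), with day 7 at 9.41 to 9.82.

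Crp, Csn1s2a and Flg, of the medullary and keratinising epithelium list, fell as the median of their list did (-0.84) and had another course after day 4. Crp, an acute phase protein, and Csn1s2a, a milk casein, fell by at least 3.21-fold and at least 3.25-fold and stayed below detection on all day 7 arrays. Both passed the filter only through the untreated arrays, so a difference was built into their choice. Flg, the filaggrin of keratinised cells, read 7.02, 6.81 and 6.03 in untreated, 4.53, 4.28 and 4.12 at day 4 (-2.31, limma adjusted p 9.6e-05) and 3.07, 3.68 and 3.69 at day 7. Flg was thus lowest at day 7, whereas Fli1, Icam2 and Thy1 were lowest at day 4.

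Of the blood lists, only 4 rises met the rule for named genes. Gpnmb, a lysosomal glycoprotein of macrophages also made by fibroblast-like cells, read 4.40, 5.16 and 4.37 in untreated and 7.66, 7.69 and 8.16 at day 4 (difference 3.19, SE 0.23, limma adjusted p 6.9e-06), with day 7 at 6.15 to 6.57. The mean of the 2 Gpnmb probe sets, of which 1 passed the filter, gave 1.69. Of the 25 macrophage markers, 13 were below detection on every untreated array and 14 on every day 4 array, and the array means were 4.03 to 4.52 and 4.09 to 4.14. Of the 12 tested, 7 were lower and 2 higher, with a median of -0.80. Ebf1, a factor of B cells and of stromal and fat precursors, rose by 1.62 but lost its call after centring on fibroblasts (0.32). Mertk, a receptor for dying cells, rose by 1.22 but turned to -0.08 after that centring. Lcn2, an iron-binding protein of neutrophils and epithelium, read 6.70, 7.58 and 6.54 and then 8.66, 8.62 and 8.05 (1.50, adjusted p 0.0010), and 5.58 to 5.69 at day 7, below all untreated arrays. Its day 4 call was lost after centring on fibroblasts (0.21).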

How the data were processed

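Transcript levels of 9 thymus samples were measured on Affymetrix Mouse Genome 430 2.0 arrays, 3 samples in each of 3 groups named in the labels. The deposited values are log2 values from GCRMA, a background correction, normalization and probe summary, named in the submitters' processing notes. The GCRMA version is not given in the sources used here. Base 2 was read from the range of the values, and the values were kept as deposited.

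Of 45101 probe sets, 64 were controls, 34945 had a single gene symbol, 932 several and 9160 none. The RefSeq table (GRCm38.p6) matched 34741 by identifier and updated 0 symbols. Each gene was represented by its brightest probe set (mean of 9 arrays), and 6907 of the genes tested had more than 1. Genes reaching 4 on 3 or more of the 9 arrays were tested, and 7256 were set aside. A gene under 4 on every array of a group has only a bound there, computed as the other group's mean against 4.

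A linear model of the 3 group means was fitted to all 9 arrays with limma 3.58.1 (lmFit, eBayes) in R 4.3.3, adjusted by Benjamini-Hochberg at 0.05. The 3 arrays a group limit the precision.

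The 16 marker lists hold 617 genes (584 on the array) and the 27 function lists 1073 (1001). Named genes were the 10 largest rises and 8 largest falls with a day 4 mean of at least 6 and the 8 largest falls to below detection. To these came up to 6 falls in stroma and 6 rises in blood lists, and all of these had to have groups that did not overlap. Up to 3 called members of each function list were taken by adjusted p alone, and Ptprc, Pdgfra and Epcam were added. The members and lists were chosen with earlier results of these data known. Promoter windows are RefSeq's. Alternatives were the filter, the choice of probe sets, an intensity trend, array weights, the 6 arrays alone, a replicate block, other scalings and leaving out each array. Tables and figures were made in Python 3.11 with pandas 2.3.3 and matplotlib 3.10.9.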

Additional observations from a re-analysis of the deposited data

Results flagged for a closer look

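Lcn2, the iron-binding protein lipocalin 2, was higher than untreated at day 4 (8.44 ± 0.34 against 6.94 ± 0.56, SD, n = 3) and lower at day 7 (5.63 ± 0.06). The day 7 minus day 4 difference was -2.81 (limma adjusted p 0.00019). It stands out because the 2 time points moved in opposite directions from untreated, by 1.50 and -1.31. After centring on fibroblasts the day 4 rise was 0.21 and lost its call.

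Probe sets without a single gene symbol entered none of the comparisons above. Of 2479 that passed the same filter, 577 (23.3%) were called higher at day 4 by limma and 1104 (44.5%) lower. They stand out because they carry calls in data the report did not use, with a larger share lower than among named genes. The units differ, since each probe set counts here, whereas named genes were counted by their brightest probe set alone.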

How the results depend on the processing

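Between 4002 and 4504 genes outside the lists were higher and between 1720 and 2099 lower when 1 array at a time was left out, and over all genes 4096 to 4604 and 1988 to 2372. The replicate numbers did not pair the samples (correlations of same-numbered untreated and day 4 deviations 0.11, -0.041 and 0.183), and a replicate block gave 4407 higher and 2262 lower genes, or 4310 and 1979 outside the lists, and changed no call of a named gene. With every probe set on its own 7408 were higher and 5171 lower, 3645 of the latter outside the lists, since more features were tested. Centring on epithelium gave 1934 higher genes, 1871 outside the lists. Centring on fibroblasts gave 262 higher and 8452 lower, 247 and 8078 outside the lists. Centring on 4 stromal lists gave 1330 and 4946, and 1272 and 4632 outside. Of the calls, 66.1% were higher as deposited, 57.8% after centring on the genes tested and 57.1% after quantile normalization. These shifts act by construction on all genes at once. Differences that turned after centring on fibroblasts were those of Kdelr1 (-0.31), Creb3l2 (-0.40), Golgb1 (-0.35), Gabarapl1 (-0.30), Atg4c (-0.11), Wipi1 (-0.32), Boc (-0.18), Meis1 (-0.01), Ptges2 (-0.08), Slc30a7 (-0.26), Kcnk2 (-0.22), Pias3 (-0.18), Ipo8 (-0.72), Mertk (-0.08) and Pdgfra (-0.04). After centring on 4 stromal lists only Ipo8 (-0.02) turned among named genes. Another 27 named genes kept their direction but lost the call after centring on fibroblasts, and 5 after centring on 4 stromal lists. Among the 27 were Slc1a4, Ift27, Bbs2, Gli2, Cdon, Yap1, Grb10, Ppp1r9a, Peg3, Itih5, Serping1, Serpina3n and Fmo5. The others were Sulf1, Csgalnact1, Pbx3, Hoxb3, Thra, Rxra, Nlgn1, Tenm3, Slc39a8, Steap2, Kcnj15, Osmr, Ebf1 and Lcn2. Epcam gained a call as lower after both of these centrings. Differences near the floor of 2.27 are compressed.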

Other observations

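Some genes had a low point at day 4 and were singled out after their values were seen. Of the genes in this paragraph all but Klf2 came from the marker lists. Acta2, smooth muscle actin, read 10.46, 10.73 and 10.55 in untreated, 8.92, 8.36 and 8.40 at day 4 and 10.18, 10.58 and 12.63 at day 7 (day 4 minus untreated -2.02, limma adjusted p 0.0089). Tagln, the actin-binding protein transgelin of contractile cells, read 9.06, 9.24 and 8.93, then 7.18, 6.53 and 6.86, then 9.08, 9.67 and 11.02 (-2.22, adjusted p 0.0015 in limma). In both genes the day 4 arrays lay below all others and day 7 replicate 3 was the highest array. Myh11, smooth muscle myosin, differed by -0.42 (adjusted p 0.30), and Cnn1, calponin, was below detection on all arrays but day 7 replicate 3, where it read 6.26. Klf2, a flow-induced factor of endothelium also active in T cells, read 8.98, 9.18 and 9.83, then 6.38, 6.31 and 6.81, then 8.82, 9.0 and 8.72 (-2.83, adjusted p 9.8e-06 in limma).

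Pth, parathyroid hormone, was high on every array, at 10.90 to 11.45 in untreated, 11.95 to 12.67 at day 4 and 13.08 to 13.72 at day 7. The day 4 minus untreated difference was 1.14 (limma adjusted p 0.0035) and that of day 7 minus untreated 2.04 (adjusted p 2.5e-04). Scd1, a desaturase of fatty acid synthesis, read 9.38 to 10.25 in untreated and 10.71 to 11.95 at day 4 (1.52, adjusted p 0.0041), with day 4 replicate 1 the highest.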
